A study of Mus musculus with 2 samples.

Results

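The anterior pituitary hormone genes Prl, Gh, Pomc, Fshb, Lhb, Tshb and Cga were followed on both arrays of a series on mouse embryonic stem (ES) cells. They were chosen by gene symbol, as every probe set to which the platform annotation gives exactly 1 symbol and that symbol is one of these. That found all 7 genes, out of 17097 named genes, read by 10 probe sets, of which 4 belong to Gh and 1 to each of the others. The genes were picked because large differences between these arrays were already known, so their own differences are a description and support nothing.

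Each group holds 1 array, so no value has a replicate, an error or a test. Both arrays are labelled as ES cells of strain C57BL/6, grown without feeder cells on gelatin with the ESGRO supplement, infected with a lentivirus made from the pMSCV-puro vector with a U6 promoter and kept for 72 hours in puromycin, the drug that selects infected cells. The group labelled control KD received a scrambled RNA and the group labelled TET2 KD a short hairpin RNA against Tet2, an enzyme that oxidises methylated cytosine in DNA. The labels do not say how many cultures or clones the RNA came from. The 2 probe sets of Tet2 itself differed by -0.06 and -0.26 between the arrays, on the log2 scale and as TET2 KD minus control KD, as all differences here. Neither was 2-fold lower, so the samples are called by their labels and no direction is assigned to a loss of Tet2. The labelled cell type was not borne out by all of its markers either. Of 9 ES cell markers measured, 7 reached the median signal of all non-control probe sets, 2.55, on both arrays. Among them were Zfp42, at 10.56 for control KD and 10.58 for TET2 KD, and Utf1, at 9.22 on both. The others, Pou5f1 and Nanog, which define ES cells, lay near background. They read 1.07 and 1.01 for control KD and 1.29 and 0.97 for TET2 KD. Mbp, a myelin protein, Stmn2, a neuronal protein, and the hemoglobin gene Hba-a1 read 10.32, 10.34 and 10.39 for control KD. Their readings for TET2 KD were 10.22, 10.35 and 10.33. Each was the brightest measured on its marker list. Snap25, also neuronal, and the vessel genes Pecam1, Cdh5 and Kdr lay under 2.55 on both arrays. Whether labels, values and probe set names match throughout the table is in doubt and cannot be settled without scanner files, so every value here stands under the gene name that the annotation gives it.

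The anterior pituitary makes a small set of hormones in separate cell types. Lactotrophs make prolactin from Prl and somatotrophs growth hormone from Gh, and both cell types depend on the transcription factor POU1F1 (Pit-1). Corticotrophs, and the melanotrophs of the intermediate lobe, make the precursor protein encoded by Pomc, which is cut into corticotropin, melanocortins and beta-endorphin. Gonadotrophs and thyrotrophs make dimers of the alpha subunit encoded by Cga with the beta subunit of follicle-stimulating hormone (Fshb), luteinising hormone (Lhb) or thyrotropin (Tshb). The pituitary is the main site of all of them, although some neurons of the hypothalamus express Pomc as well.

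The region just before the transcription start of a hormone gene holds much of the sequence that restricts it to its cell type, and the members that differ most are encoded on different chromosomes. RefSeq promoter windows of build GRCm38.p6 were matched for 6 of the 7 genes, all but Gh, and the 250 bases before the start were searched on both strands for 4 motifs. These were TATNCAT, the core of sites bound by POU1F1, CAAGGNCA, the element bound by the gonadotroph factor NR5A1, TAATCC, the core of PITX sites, and TATAAA, the TATA box. The windows of Prl, Pomc and Fshb, the matched members that were lower by 2-fold or more on the array labelled TET2 KD, and of Cga, the member with its higher reading for TET2 KD, are printed 5′ to 3′ on the gene's strand, with the bases of any motif match in capitals. They lie at chr13:27057320-27057569 on the plus strand for Prl, chr12:3954695-3954944 on the plus strand for Pomc, chr2:107059652-107059901 on the minus strand for Fshb and chr4:34893529-34893778 on the plus strand for Cga.
Prl: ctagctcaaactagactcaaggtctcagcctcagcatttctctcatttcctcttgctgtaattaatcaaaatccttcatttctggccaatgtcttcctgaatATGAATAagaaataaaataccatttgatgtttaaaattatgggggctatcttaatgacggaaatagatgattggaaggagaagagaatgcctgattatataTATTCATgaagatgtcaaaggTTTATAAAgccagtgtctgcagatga
Pomc: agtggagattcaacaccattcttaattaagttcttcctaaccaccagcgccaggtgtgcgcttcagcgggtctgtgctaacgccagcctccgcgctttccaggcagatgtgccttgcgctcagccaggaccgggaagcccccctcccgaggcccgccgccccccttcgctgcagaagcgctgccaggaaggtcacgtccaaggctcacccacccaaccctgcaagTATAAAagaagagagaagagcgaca
Fshb: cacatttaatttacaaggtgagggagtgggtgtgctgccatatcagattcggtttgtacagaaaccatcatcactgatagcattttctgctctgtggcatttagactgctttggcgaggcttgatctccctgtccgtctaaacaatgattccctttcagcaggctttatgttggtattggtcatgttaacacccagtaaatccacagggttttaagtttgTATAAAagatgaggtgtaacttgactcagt
Cga: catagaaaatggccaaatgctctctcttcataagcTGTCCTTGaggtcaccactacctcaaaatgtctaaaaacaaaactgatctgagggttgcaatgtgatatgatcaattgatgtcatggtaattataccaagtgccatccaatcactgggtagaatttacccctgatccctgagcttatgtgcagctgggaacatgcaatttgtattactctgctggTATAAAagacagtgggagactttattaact

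A TATA box was present in each of the 6 windows, beginning 24 bases before the start in Prl, 25 in Pomc, 27 in Tshb, 30 in Fshb and Cga, and 31 in Lhb, beside 12.4% of all 32851 promoter windows of the same length with a match anywhere. In Prl the box overlaps its own reverse match, which makes the capitals there 2 bases longer, and Tshb holds an overlapping pair of further matches at the far end of its window. The POU1F1 core was found in the Prl window alone of these 6, with 2 matches beginning 148 and 47 bases before the start, and 7.92% of all windows hold it. The NR5A1 element was found in the windows of Lhb, with 2 matches, and Cga, with 1, beside 5.53% of all windows. No window of the 6 held TAATCC, which 6.25% of all windows do. A match is a run of letters and no evidence of binding, and enhancers further away were not searched.

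Prolactin and growth hormone were the members with the largest differences. The probe set of Prl, the milk hormone of lactotrophs, read 10.66 on the log2 scale for control KD and 4.13 for TET2 KD. That is a difference of -6.53, or 92.5-fold, so the level for TET2 KD was 1.08% of the other. The lower value still lay 1.58 above the floor of 2.55, the median over all non-control probe sets of both arrays, under which a value is read only as a bound.

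Gh, the growth hormone of somatotrophs, was read by 4 probe sets, and all of them were high on one array and low on the other. The first probe set read 10.45 for control KD and 3.39 for TET2 KD, a difference of -7.05 (133-fold). The second read 10.40 and 3.73, a difference of -6.67 (102-fold), and the third 10.07 and 3.24, a difference of -6.83 (114-fold). The brightest, which stands for Gh in every count over genes, read 10.69 and 4.60, a difference of -6.09 (68.1-fold). These 4 probe sets read the same RNA on each array, so they are not replicates. They spanned 10.07 to 10.69 for control KD and 3.24 to 4.60 for TET2 KD, and their differences spread over 0.97. The brightest probe set was therefore the one with the smallest difference, and the mean over all 4 was -6.66. The names of 3 of them end in _x_at, a mark of probes that can also bind similar transcripts, and the third ends in _a_at, a mark of several transcripts of 1 gene.

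Pomc, the corticotropin precursor, read 8.04 for control KD and 3.35 for TET2 KD, a difference of -4.69, or 25.8-fold. Its level for TET2 KD was 3.87% of that for control KD and lay 0.79 above the floor. Prl, Gh and Pomc were thus measured above the floor on both arrays, which no other member was. Fewer cells of a type and less RNA per cell cannot be told apart in such bulk RNA.

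The gonadotropin beta subunits lay lower on both arrays. Fshb, which gives follicle-stimulating hormone its specificity, read 5.31 for control KD and 1.21, under the floor, for TET2 KD. Against the floor it was at least 6.77-fold lower, and the difference as measured was -4.10. Lhb, the partner subunit of luteinising hormone, read 2.98 for control KD and 1.57 for TET2 KD, which gives a bound of at least 1.34-fold lower, short of 2-fold. Lhb lay just inside the floor on 1 array, by 0.42. Its value for TET2 KD was held, to every decimal, by 160 other probe sets of that array, and how these equal values arose was not tested. No other member shared a value with another probe set on either array.

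Thyrotropin's beta subunit and the common alpha subunit were near background. Tshb read 2.02 for control KD and 0.62 for TET2 KD, both under the floor, so no fold is given for it. Its higher value lay 0.53 under the floor, and Tshb was the 1 member that did not reach the floor on either array. Cga was the 1 member with a higher reading for TET2 KD, at 1.29 for control KD and 2.80 for TET2 KD. It lay just inside the floor, by 0.25, and was at least 1.19-fold higher, short of 2-fold. Of the 3 beta subunits and the alpha subunit they pair with, only Fshb was past 2-fold against the floor, and no direction is read from the others.

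**Figure D1:**
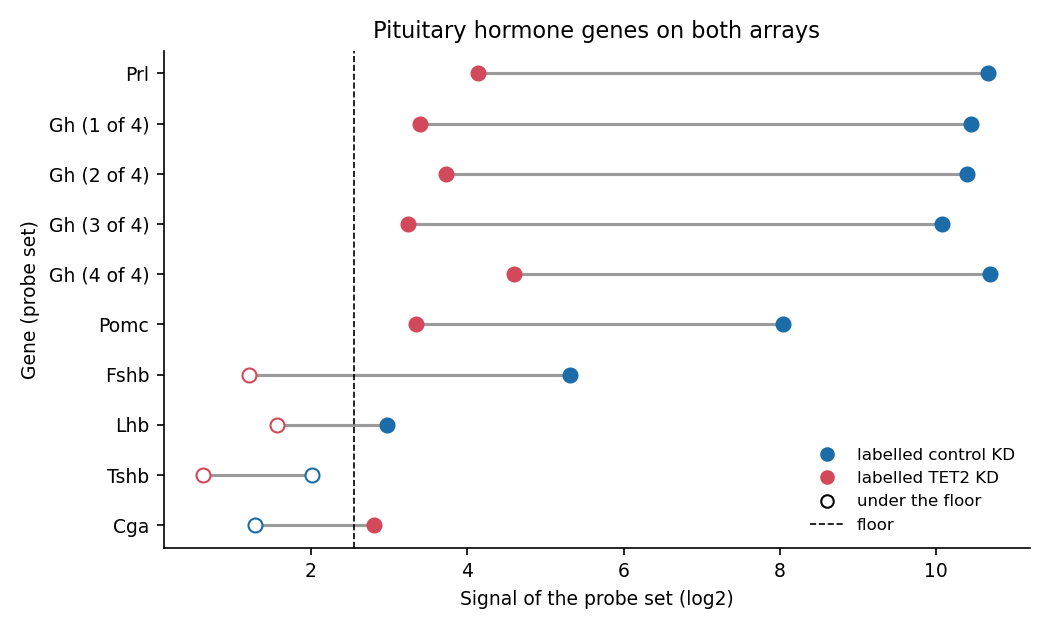
Log2 signal (horizontal axis) of each of the 10 probe sets of the 7 hormone genes (vertical axis) on the arrays labelled control KD (blue) and TET2 KD (red), with open circles for values under the floor (dashed line at 2.55). The readings of Prl, Gh and Pomc stay above the floor on both arrays and differ by -4.69 to -7.05, while those of Lhb, Tshb and Cga are under or within 0.42 of the floor.

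In counts, 4 of the 7 genes had a mean over both arrays that reached the floor, and these 4 (Prl, Gh, Pomc and Fshb) were at least 2-fold lower. Over all 11174 genes with such a mean, 1.41% were lower and 1.17% higher by 2-fold or more. Fshb passed the filter only through the array on which it was high, so it had to differ, and the members were chosen for this contrast, so nothing is read from 4 beside 1.41%. With values under the floor set to it, 6 members reached the floor on at least 1 array, 4 of them were lower by 2-fold or more and none higher, where 1.26% of 11388 genes were lower and 1.14% higher. The median difference of the 11174 genes was -0.0071, their robust SD 0.15, and 81.4% of them differed by less than 0.25.

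Among the 10936 genes that reached the floor on each of the arrays, Prl had the most negative difference and Gh the next. Xist, the RNA of the inactive X chromosome, followed at -5.72, then Pomc, and the fifth was Sec14l3 at -3.79, a gene of airway epithelium. Cebpg, a transcription factor, was sixth at -2.61. This order rests on the brightest probe set of each gene. Over single probe sets, those of Gh at -7.05, -6.83 and -6.67 came before Prl at -6.53. Probe sets of Mef2c at -3.32 and Cand1 at -3.04 lay between Sec14l3 and Cebpg. Among the 252 genes that reached the floor for control KD alone, ordered by their bounds, Fshb stood at position 6 and Lhb at position 89.

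**Figure D2:**
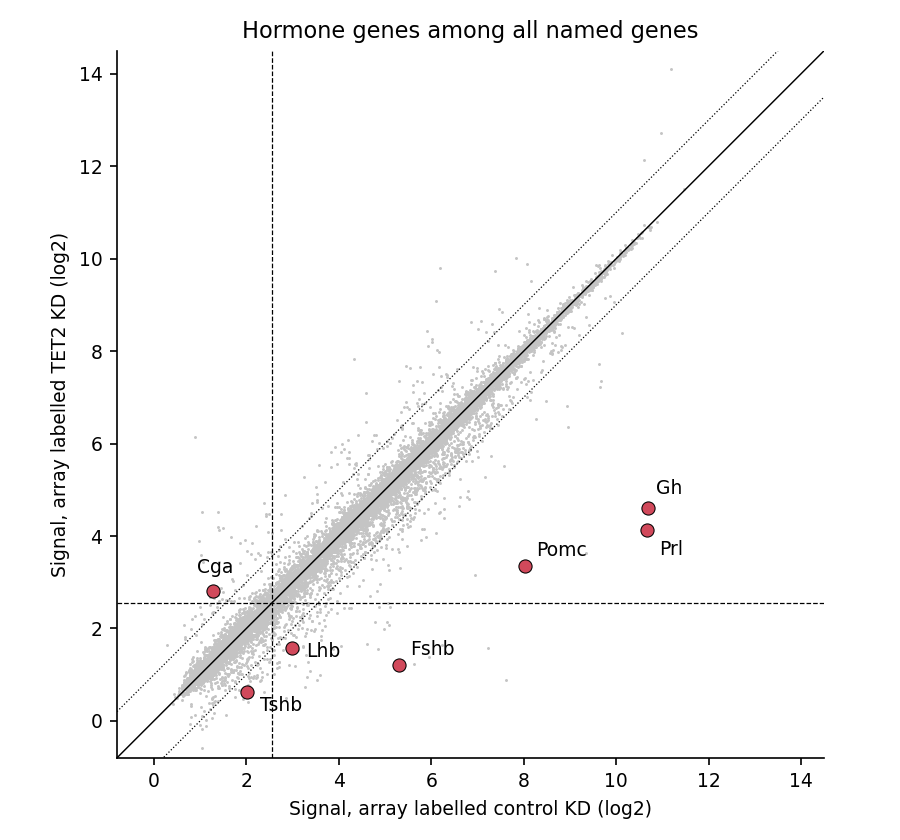
Log2 signal of every named gene (grey, 17097 genes, 1 probe set each) and of the hormone genes (red, with names) on the array labelled control KD (horizontal) and the array labelled TET2 KD (vertical), with the line of equal values, dotted lines at 2-fold and dashed lines at the floor. Prl, Gh, Pomc and Fshb lie far under the lower dotted line, and Cga lies above the upper one but close to the floor.

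The genes nearest to each member in the plane of both values were taken as those of like pattern, by Euclidean distance on the log2 scale over the 2 arrays. The nearest to Prl was Gh and the nearest to Gh was Prl, 0.47 apart, followed for both by Xist at 1.42 and 1.67. Pomc was the next for Prl, at 2.74, and Cebpg for Gh, at 2.46. Pomc itself had Sec14l3 at 1.10, Xist at 1.33 and Cbr1, a carbonyl reductase, at 1.89. These hormone genes were picked with their large differences known, so nothing is read from the distances to their nearest genes.

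Fshb had nearer genes, Cyp2f2, a cytochrome of airway cells, at 0.31, Ddx19b at 0.58 and Stoml3, a stomatin of sensory neurons, at 0.66. Lhb had Fetub at 0.018, Ripk4 at 0.15 and Nell1 at 0.19, and Cga had Ifit2, an interferon-induced gene, at 0.037, Prc1, a protein of the mitotic spindle, at 0.083 and Kif14, a mitotic kinesin, at 0.12. Fetub carries the same value as Lhb for TET2 KD. With 2 arrays such nearness says only that both values are close.

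Transcription factors of pituitary development and identity differed by less than 2-fold where their mean reached the floor. Of 27 on the list, 24 were measured and 12 had a mean that reached the floor, and 0 of these 12 were past 2-fold in either direction, with a median of -0.16. Tbx19, which drives Pomc in corticotrophs, read 1.66 for control KD and 1.68 for TET2 KD. Pitx1, an early factor of the gland that acts on many hormone genes, read 1.64 and 1.48, and Lhx3, needed for the gland to form, 1.49 and 1.44. These were all under the floor on both arrays, including the second probe set that each of them has. In all, 11 of the 24 stayed under it on both, so they could not show a lower level.

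Nr5a1, the gonadotroph factor, read 2.20 for control KD and 1.64 for TET2 KD, also under the floor on both. Gata2, a factor of thyrotrophs and gonadotrophs, read 3.95 and 3.74, while its other probe set read 1.64 and 1.68, under the floor. Pou1f1, which acts on Prl, Gh and Tshb, was not analysed here. The factors with the highest readings are shared with neural tissue: Neurod1 read 7.31 and 7.08, Sox2 7.09 and 6.98, and Zbtb20 6.13 and 6.02. Nr4a1, an immediate early factor that can act on Pomc, had a mean under the floor and read 1.41 and 3.43, at least 1.83-fold higher for TET2 KD.

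Receptors by which the hypothalamus acts on pituitary cells were mostly at background. Of 13 measured, 10 did not reach the floor on either array and 0 of the other 3 were past 2-fold. Crhr1, the corticotroph's receptor for corticotropin-releasing hormone, read 4.84 and 4.76, and 2.85 and 2.90 in its other probe set. Drd2, through which dopamine restrains prolactin, read 1.42 and 1.19, Trhr, the thyrotropin-releasing hormone receptor, 2.22 and 2.13, and Gnrhr, the gonadotroph's receptor for gonadotropin-releasing hormone, 2.39 and 2.33. Sstr3, a somatostatin receptor, read 3.51 and 3.75, and Adcyap1r1, a receptor of the peptide PACAP, 2.97 and 3.17. Ghrhr was not analysed here. The 3 receptors that reached the floor thus did not separate the arrays by 2-fold. The 10 under it on both arrays could not show a lower level.

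Of 10 hypothalamic regulators measured, 7 did not reach the floor on either array and none of the 3 others was past 2-fold. Trh, thyrotropin-releasing hormone, read 6.65 and 6.46, Crh, corticotropin-releasing hormone, 2.65 and 2.74, and Npvf, a precursor of peptides that restrain gonadotropins, 2.73 and 2.63. Adcyap1, the precursor of PACAP, read 2.14 and 2.33. Of 7 receptors measured for the hormones themselves, 6 did not reach the floor on either array. The other was Ghr, the growth hormone receptor, at 4.30 and 4.43. Tshr, the thyrotropin receptor, read 2.23 and 1.77.

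Of the genes that cut and package peptide hormones, some were measured above the floor on both arrays and others were not. Of 17 measured, 11 had a mean that reached the floor, with a median difference of 0.015, 0 lower and 1 higher. The 1 was Scg2, secretogranin II, a granule protein, at 7.32 for control KD and 8.59 for TET2 KD. Its difference of 1.27 was opposite in direction to those of Prl, Gh, Pomc and Fshb. Cpe, the carboxypeptidase that trims hormone precursors, read 6.44 and 6.45, Cadps, a priming factor of granule release, 8.39 and 8.26, and Rab3a, a GTPase of secretory vesicles, 7.87 and 7.79. Another 5 stayed under the floor throughout, namely Pcsk1, a convertase that cuts hormone precursors, at 1.26 and 1.22, Chgb, Scg3, Ptprn2 and Resp18, and Sytl4 was under it for TET2 KD at 2.60 and 2.07. Among 9 other secreted products measured, 6 had a mean that reached the floor and 1 was lower. That was Dlk1, an imprinted membrane and secreted protein made by somatotrophs among other cells, at 5.03 and 3.74, a difference of -1.28. Its only probe set ends in _s_at, the mark of probes shared between transcripts. Bmp4 read 5.49 and 5.56, the activin subunit gene Inhba 4.44 and 4.42, and Fst, which binds activin, 4.15 and 4.03.

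The prolactin family also includes many placental hormones, encoded beside Prl. Of 18 relatives measured, which include Gpha2, a relative of the alpha subunit, 17 did not reach the floor on either array. The other, Prl2c2, read 2.63 and 2.71. Readings under the floor could not show a lower level, so these relatives say little of whether they differed as Prl did. Gh, which belongs to the same wider family as Prl, is a member and was not on this list.

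Over these 7 lists, 98 of 119 genes were measured and 37 had a mean that reached the floor. Of the 37, 1 (2.7%) was lower and 1 (2.7%) higher by 2-fold or more, beside 1.41% and 1.17% of all genes, their median difference was -0.047, and 33 differed by less than 0.5. Beyond Scg2 and Dlk1, the others were Sox9 at -0.64 and Ikzf1 at -0.65 in their brightest probe sets. The 3 probe sets of Sox9 differed by -0.64 to 0.17 and the 2 of Ikzf1 by -0.65 to 0.098. At a threshold of 4-fold none of the 37 was called, beside 31 lower and 28 higher of all 11174 genes. The 4 lower hormone genes were still called, but they were chosen for this contrast, so nothing is read from that difference.

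**Figure D3:**
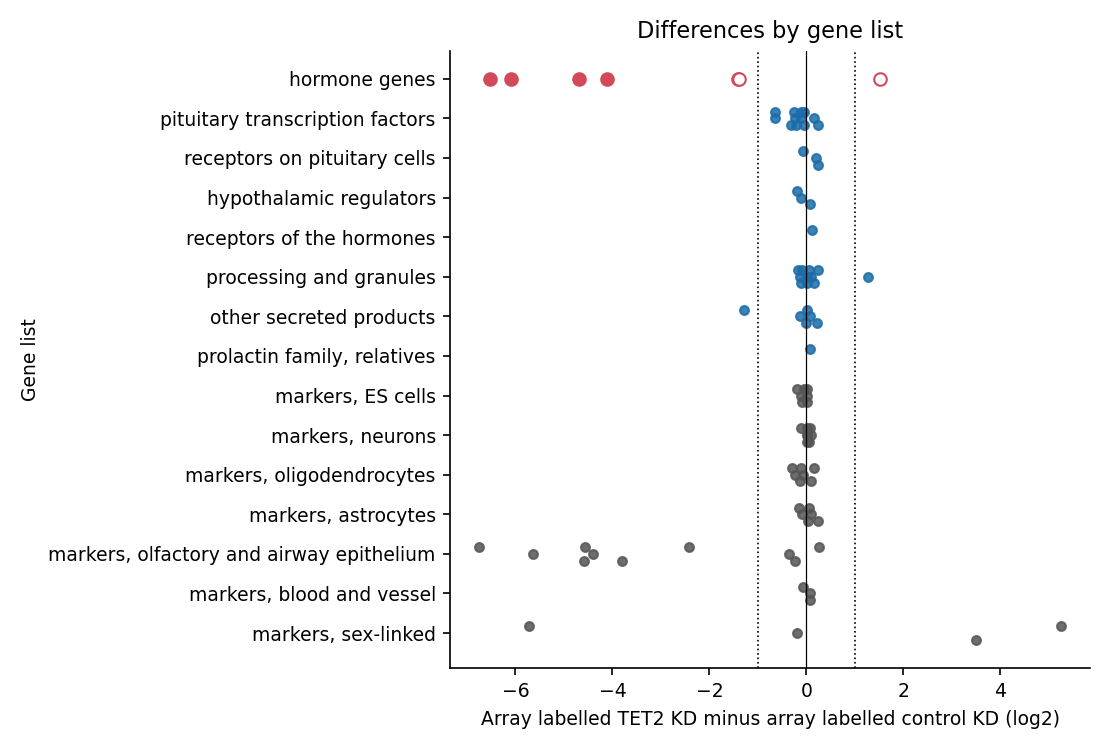
Difference between the arrays (TET2 KD minus control KD, log2, horizontal axis) for the 7 hormone genes (red, open where the mean of both arrays is under the floor) and for each gene with a mean that reached the floor on the pituitary lists (blue) and the marker lists (grey), with dotted lines at 2-fold. Most pituitary genes lie within 0.5 of 0, apart from Dlk1, Scg2, Sox9 and Ikzf1, whereas genes of olfactory and airway epithelium and of the sex chromosomes spread from -6.74 to 5.25 as measured, values under the floor included.

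Markers of other cells were read beside the hormones. Of the markers of ES cells, 7 of 9 measured reached the floor on both arrays, of neurons 8 of 9, of oligodendrocytes 7 of 7, of astrocytes 6 of 7 and of blood and vessels 3 of 6, and none of those with a mean that reached it was past 2-fold. Pou5f1 and Nanog were among the ES cell markers that did not. Of 10 genes of olfactory and airway epithelium with a mean that reached the floor, 7 were at least 2-fold lower, in a list written with such differences already known. Of these 7, 6 were under the floor for TET2 KD and passed the filter only through control KD, so they had to differ, and with values under the floor set to it the median of the 10 was -3.23. The 4 genes measured above the floor on each array were Sec14l3, at -3.79, and Gnal, Adcy3 and Foxj1, at -0.24, -0.36 and 0.27. Summed on the linear scale, its 12 measured genes gave a signal of 913 for control KD and 231 for TET2 KD, and 2 of the 12 were under the floor for control KD against 8 for TET2 KD. Omp, which defines mature olfactory neurons, did not reach the floor on either array. Xist was lower too. Of 4 genes of the Y chromosome, both Eif2s3y and Kdm5d did not reach the floor for control KD. In their brightest probe sets they were at least 11.99-fold and 3.91-fold higher for TET2 KD. The 2 probe sets of Eif2s3y differed by 1.02 and 5.25, and the 3 of Kdm5d by 0.034 to 3.49. Sry read 3.04 and 2.84, and Uty was under the floor on each array. The 7 lower epithelial genes and Xist differed in the same direction as Prl, Gh, Pomc and Fshb. Eif2s3y and Kdm5d differed in the opposite direction. The part of these genes in the result was not tested.

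Most measured genes next to the hormone genes on the chromosome differed by less than 2-fold. The 5 nearest measured protein-coding genes on each side of every member were taken from the RefSeq order of GRCm38.p6, a rule chosen after the members' values were seen. Of these 70 genes, 57 had a mean that reached the floor, of which 1 was lower by 2-fold or more and none higher, beside 1.41% and 1.17% of all genes. The 1 was Kif3c, a kinesin, 4 genes from Pomc, at 6.38 for control KD and 5.32 for TET2 KD. Dnmt3a, a DNA methyltransferase and the measured neighbour of Pomc on that same side, read 5.62 and 5.57. Beside Gh, the B cell receptor gene Cd79b read 4.08 and 3.89 and Tcam1 2.56 and 2.68. On one side of Prl all 5 measured neighbours are members of the prolactin family, among them Prl3c1 at 1.24 and 1.19. None of those 5 reached the floor, and 3 of the 10 neighbours of Prl had a mean that did, so most of them could not show a lower level.

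**Figure D4:**
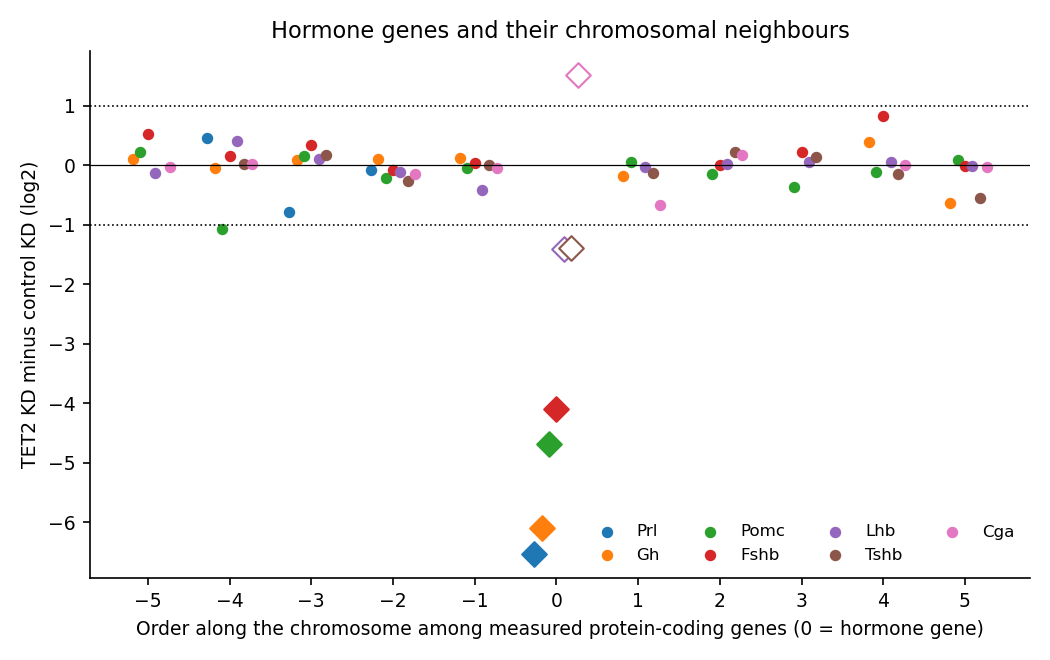
Difference between the arrays (TET2 KD minus control KD, log2, vertical axis) for each hormone gene (diamonds at 0, open where the mean of both arrays is under the floor) and for those of its 5 measured neighbours on each side with a mean that reached the floor (circles in the colour of the hormone gene), by order along the chromosome (horizontal axis). Of 57 neighbours 1, beside Pomc, passes the dotted line at 2-fold.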

How the data were processed

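Total RNA of 2 samples was labelled with biotin after T7-oligo(dT) priming from 2 µg, per the labels' protocols, and read on 1 Affymetrix array each. The authors deposited 1 log2 signal for each probe set. The submitters' processing notes name Affymetrix Expression Console. Its version and settings were not given in the sources used here, nor were the summary method and the normalization. The log base was read from the values. Scanner files were not used here.

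Of 45141 probe sets, 104 are Affymetrix controls and 28898 of the others carry 1 symbol in the platform annotation. Each gene is read from its brightest probe set by mean over the arrays. The floor is the median over all non-control probe sets of both arrays. Genes were called at 2-fold as measured where their mean reached the floor, and folds against values under it are bounds. Named were all probe sets of the members, the members' known regulators, the genes past 2-fold and those with the highest means in each list (up to 4), and the 3 genes nearest to each member. Further genes named (the neighbours on the chromosome, Sox9 and Ikzf1, and the genes of the most negative differences) were chosen after their values were seen. Of 177 list entries 153 found a probe set. Members and lists were chosen with earlier results of these data known. The calls were tested on simulated data. Alternatives covered scaling, floor, probe set rule and threshold. Python 3.11.15, numpy 2.4.6, scipy 1.17.1, pandas 2.3.3 and matplotlib 3.10.9 were used.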

Additional observations from a re-analysis of the deposited data

How the results depend on the processing

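The 4 lower hormone genes were called under 8 of 10 alternatives for that count, with Fshb short of the filter when the floor was at the 75th percentile. Without every probe set ending in _s_at, _x_at or _a_at, which leaves none for Prl, Gh and Pomc, 1 (Fshb) was lower and 3 members were at or above the floor on at least 1 array. Centring and quantile normalization kept every member's sign, with differences of -6.51 for Prl, -6.07 for Gh, -4.67 and -4.68 for Pomc and -4.09 and -4.08 for Fshb, and Gh was at -6.83 without probe sets ending in _s_at or _x_at, an alternative chosen after seeing the data. A floor at the 25th percentile made Cga 1 member higher and Lhb a lower one as well, and Nr4a1 and Scg2 made 2 genes of the pituitary lists higher. Of those lists, 0 were lower when the floor was the 75th percentile, without probe sets ending in _s_at, _x_at or _a_at, without those ending in _s_at or _x_at, or at 4-fold, where 0 were also higher, and 3 were lower at 1.5-fold. Over all genes, 158 lower and 131 higher became 60 and 80 for a floor of the 75th percentile, 606 and 199 at 1.5-fold, 31 and 28 at 4-fold, and 106 and 87 in the mean of probe sets. No paired analysis was possible because each group has 1 array. The number of arrays limits the precision, and readings near the floor, those of Lhb, Tshb and Cga, have no order.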
